A study of Homo sapiens with 6 samples.

Results

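The genes described here are the 9 components of the type I interferon signaling chain IFNAR1, JAK1, TYK2, STAT2, IRF1, IRF2, IRF3, IRF7 and IRF9, taken by symbol from a deposited table of 24108 rows. Each symbol matched 1 row, no row was joined to another symbol, and none of the 9 was listed at 0 in any sample. All 9 passed the filter on low values, as did 11777 rows in all. The samples were 6 RNA-seq libraries of MDA-MB-231, a long-established breast cancer line of basal subtype and triple-negative. In 3 of them (shCtr) the cells carried an LKO lentiviral hairpin against luciferase, and in the other 3 (shZNF148) a lentiviral hairpin against the zinc finger transcription factor ZNF148. Both groups were transduced for 48 h and kept for 24 h in 0.5 µg/ml puromycin, and the labels name no interferon treatment. Only 1 hairpin sequence against ZNF148 and 1 cell line were used, so a response to that hairpin and a response to loss of ZNF148 cannot be told apart. The labels do not say whether replicates came from separate cultures, so p-values measure the spread between these samples, which may be technical.

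Type I interferons bind a receptor whose chains include IFNAR1, and the bound receptor activates the kinases JAK1 and TYK2. The kinases phosphorylate STAT2, which joins a STAT partner and the DNA-binding protein IRF9 in a complex that enters the nucleus and switches on interferon-stimulated genes. IRF3 and IRF7 act upstream, turning on the interferon genes themselves when viral nucleic acid is sensed. IRF1 is an activator and IRF2 a related factor that mostly represses from similar DNA sites. IFNAR1, JAK1, TYK2, IRF2 and IRF3 are made by most cells without stimulation and were grouped as constitutive. STAT2, IRF1, IRF7 and IRF9 are themselves raised by interferon and were grouped as induced.

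The targeted gene stood at 3.72, 4.36 and 4.30 FPKM in the controls against 0.914, 0.282 and 0.834 FPKM after knockdown, and ZNF148 was lowest in shZNF148 replicate 2. FPKM counts fragments per kilobase and per size of the library, a level per transcript length, so it can be compared between genes. The summed FPKM ran from 469594 to 507312 per sample, and the relative depth read from steps between low values ran from 0.806 to 1.13 of that of shCtr replicate 1. The read number itself is unknown. The line's markers VIM, CD44, CAV1, AXL and MSN were all present, with a summed level of 2595 to 3225 FPKM. The hormone receptor gene ESR1 was listed at 0 in all 6 samples and PGR stayed at or below 0.0830 FPKM. Of 8 leukocyte markers, NKG7 was listed at 0 in every sample, PTPRC did not exceed 0.115 FPKM, and only CSF1R passed the filter. The summed level of the 8 was 2.53 to 4.09 FPKM in shCtr and 5.01 to 6.02 FPKM in shZNF148, most of it CSF1R and CD14. CSF1R itself passed as higher (1.66, 2.86 and 2.06 FPKM against 4.24, 3.77 and 3.87 FPKM, adjusted p = 0.0402 from limma), and its part in the results for other genes was not tested. CD44 and AXL passed as lower, with log2 fold changes of -0.46 and -0.29 (adjusted p = 0.0185 and 0.0364 from limma).

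Among the 9 genes, only IFNAR1 passed the test between shZNF148 and shCtr, with a level higher in every shZNF148 replicate. IRF1 had the larger difference, about a doubling of its mean, but its replicates were so far apart that it did not pass. IRF7 and IRF9 were also higher on average without passing. JAK1, TYK2, IRF2, IRF3 and STAT2 had overlapping groups and small differences. Rows passed at an adjusted p under 0.05 from limma, fitted on log2(FPKM + 1) over all 11777 tested rows, and p-values were adjusted by Benjamini-Hochberg. The added 1 FPKM makes the fold of a low gene look smaller than it is.

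IFNAR1 lies on chromosome 21 from 33324387 to 33359864 (GRCh38, plus strand), and encodes the receptor chain to which TYK2 binds. Replicates 1, 2 and 3 stood at 9.59, 10.4 and 10.2 FPKM with the control hairpin and at 13.8, 16.0 and 15.0 FPKM with the ZNF148 hairpin. The groups did not overlap and each was tight, with a coefficient of variation of 4.34% in shCtr and 7.34% in shZNF148. The control mean of 10.1 ± 0.437 FPKM compared with 15.0 ± 1.10 FPKM after knockdown (SD, n = 3 each), a ratio of means of 1.48. The log2 fold change was 0.52 (standard error 0.08, 95% interval 0.33 to 0.72, adjusted p = 0.0172 from limma), rank 258 of 11777 by p. This lay under the study's second criterion, a change of more than 1.5-fold (0.585 on the log2 scale). By exact permutation (two-sided) p was 0.1, and 3 samples against 3 cannot go lower. The adjusted p from limma rose above 0.05 when any shCtr replicate was left out, to 0.0833 without replicate 1, 0.0523 without replicate 2 and 0.0729 without replicate 3. Leaving out each of the 6 samples in turn kept the change of IFNAR1 within 0.48 to 0.58 on the log2 scale.

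The kinases did not pass. JAK1, on chromosome 1 from 64833223 to 65067754 (minus strand), was 37.2, 38.7 and 36.5 FPKM in the shCtr replicates and 33.0, 38.7 and 34.8 FPKM in the shZNF148 replicates. Its groups overlapped, since shZNF148 replicate 2 stood level with the highest control. The log2 fold change of JAK1 was -0.08 (95% interval -0.26 to 0.10, adjusted p = 0.488 from limma), so a fold between 0.835 and 1.07 lies within the interval. TYK2, on chromosome 19 from 10350533 to 10380608 (minus strand), was 29.3, 28.4 and 26.6 FPKM in shCtr and 30.3, 32.7 and 29.2 FPKM in shZNF148. Only the lowest shZNF148 replicate fell within the control range. The log2 fold change of TYK2 was 0.12 (95% interval -0.05 to 0.30, adjusted p = 0.274 from limma).

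**Figure D1:**
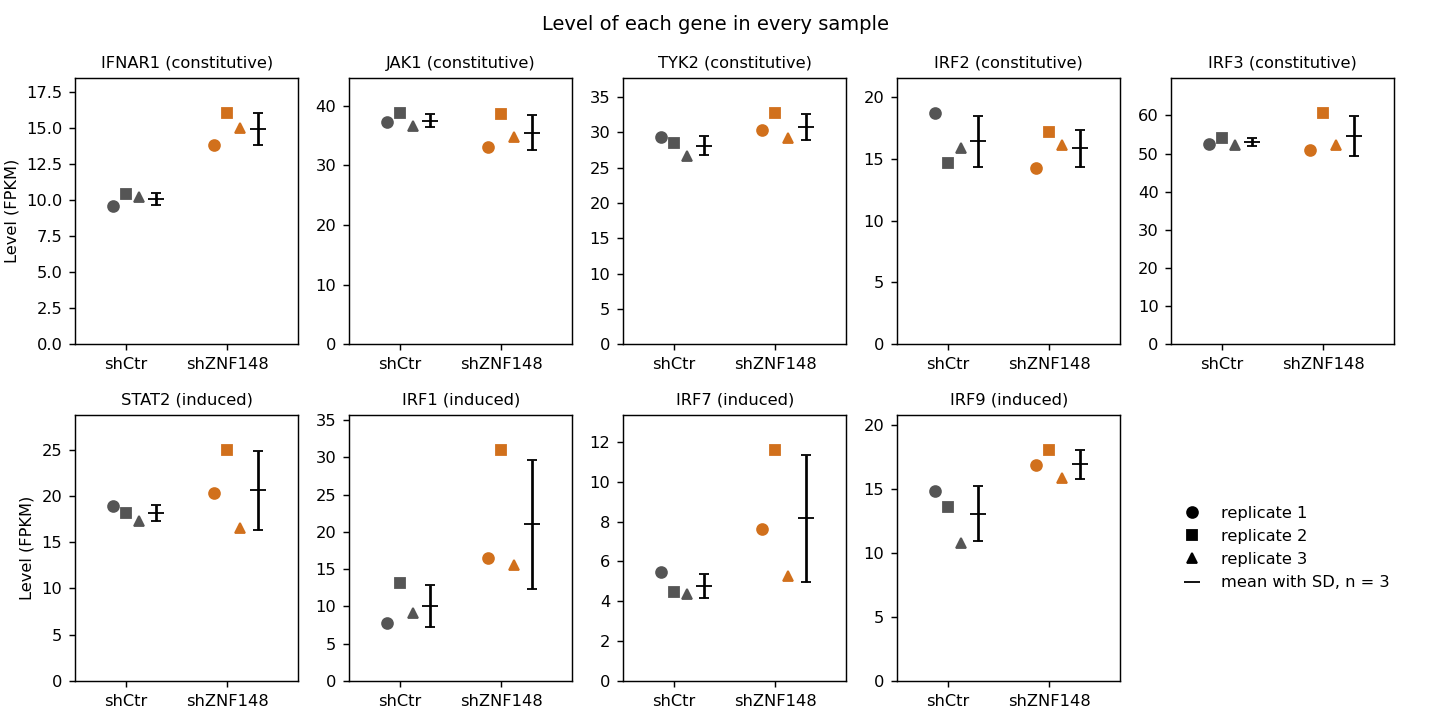
Level in FPKM (linear axis from 0) of the 9 genes in each of the 6 samples, with the 3 shCtr replicates in gray, the 3 shZNF148 replicates in orange, a marker shape per replicate number, and bars for the mean and SD (n = 3). IFNAR1, IRF1 and IRF9 have no overlap between groups, and the square of shZNF148 replicate 2 is the highest shZNF148 value in all 9 panels.

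The constitutive IRF genes differed little between groups. IRF3, the factor phosphorylated by TBK1 after nucleic acid sensing, lies on chromosome 19 from 49659569 to 49665875 (minus strand). Its level was 52.5, 54.2 and 52.3 FPKM in shCtr and 51.1, 60.6 and 52.1 FPKM in shZNF148, with a log2 fold change of 0.04 (95% interval -0.15 to 0.23, adjusted p = 0.762 from limma). Exons of BCL2L12 on the other strand cover 14.2% of the exonic bases of IRF3, so its level may include reads of that gene. IRF2, on chromosome 4 from 184385702 to 184474558 (minus strand), was 18.7, 14.6 and 15.9 FPKM in shCtr and 14.2, 17.2 and 16.1 FPKM in shZNF148. Its log2 fold change was -0.05 (95% interval -0.31 to 0.22, adjusted p = 0.805 from limma). For both genes the values of one group lay across those of the other. The 95% intervals leave room for folds from 0.901 to 1.17 for IRF3 and from 0.806 to 1.17 for IRF2.

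Of the induced genes, IRF1 had the largest difference. It lies on chromosome 5 from 132440440 to 132508719 (minus strand). Replicates 1, 2 and 3 stood at 7.76, 13.2 and 9.10 FPKM with the control hairpin and at 16.5, 31.0 and 15.6 FPKM with the ZNF148 hairpin. Every shZNF148 replicate was above every control, and replicate 2 of both groups was the highest of its group. The control mean of 10.0 ± 2.82 FPKM compared with 21.0 ± 8.65 FPKM after knockdown (SD, n = 3 each), a ratio of means of 2.10. The log2 fold change was 0.96 (standard error 0.29, 95% interval 0.27 to 1.65), and the adjusted p of 0.0692 from limma did not pass. Without shZNF148 replicate 2 it was 0.66 (adjusted p = 0.0816 from limma). In the GENCODE annotation, 16.3% of the 3554 exonic bases of the canonical IRF1 transcript overlap exons of antisense genes, among them IRF1-AS1. Whether the libraries kept strand is not given in the sources used here, so reads of the antisense RNA cannot be told apart from those of IRF1 there.

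IRF7, the interferon-inducible counterpart of IRF3, lies on chromosome 11 from 612553 to 615983 (minus strand). Its level was 5.48, 4.47 and 4.34 FPKM in shCtr and 7.62, 11.6 and 5.28 FPKM in shZNF148. The groups overlapped by 1 sample, with shZNF148 replicate 3 below shCtr replicate 1. The mean of IRF7 was 4.76 ± 0.620 FPKM in the controls and 8.17 ± 3.20 FPKM after knockdown (SD, n = 3 each), and the log2 fold change was 0.62 (standard error 0.24, 95% interval 0.03 to 1.20, adjusted p = 0.133 from limma). This value moved with single samples. It was 0.36 without shZNF148 replicate 2 (adjusted p = 0.195 from limma) and 0.86 without shZNF148 replicate 3, where its adjusted p of 0.0489 from limma passed.

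IRF9, the DNA-binding subunit of the STAT2 complex, lies on chromosome 14 from 24161234 to 24168043 (plus strand). Its level was 14.9, 13.7 and 10.8 FPKM in shCtr and 16.9, 18.1 and 15.9 FPKM in shZNF148. The groups did not overlap, and the largest spread was among the controls. Its log2 fold change was 0.36 (standard error 0.12, 95% interval 0.06 to 0.65, adjusted p = 0.0968 from limma), with 0.23 without shCtr replicate 3 and 0.45 without shCtr replicate 1 (adjusted p = 0.211 and 0.122 from limma). Exons of 2 other annotated genes cover 93.1% of the exonic bases of IRF9, so its level may include reads of those genes. STAT2, on chromosome 12 from 56341597 to 56360203 (minus strand), was 19.0, 18.2 and 17.2 FPKM in shCtr and 20.3, 25.0 and 16.5 FPKM in shZNF148. One shZNF148 replicate was below all controls and the other two above them. The log2 fold change of STAT2 was 0.16 (95% interval -0.18 to 0.50, adjusted p = 0.473 from limma), and 0.01 without shZNF148 replicate 2.

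**Figure D2:**
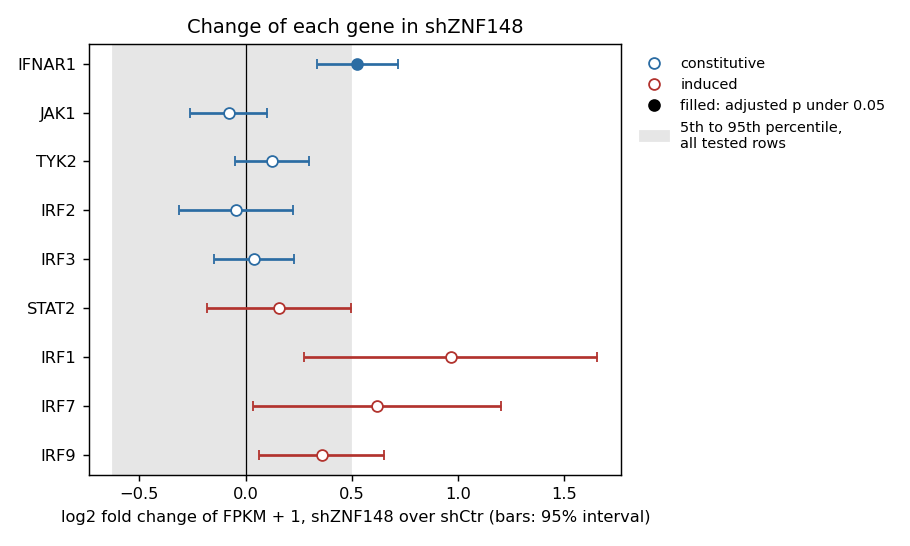
log2 fold change of FPKM + 1 in shZNF148 over shCtr for the 9 genes, constitutive in blue and induced in red, with 95% intervals from limma and a filled point where the adjusted p was under 0.05. The gray band spans the 5th to 95th percentile of all 11777 tested rows (-0.62 to 0.50). Only IFNAR1 is filled, and IRF1 at 0.96 has the widest interval.

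At the study's criteria (an adjusted p under 0.05 and more than 1.5-fold), 0 of the 9 genes were called by limma, where 5.49% of all tested rows were called, 1.83% higher and 3.66% lower. At the adjusted p alone, 1 of 9 (11.1%) passed as higher and 0 as lower, beside 5.46% and 8.13% of all tested rows (13.6% in either direction). The number that passed as higher was 0 without any one of the shCtr replicates and 2 (IFNAR1 and IRF7) without shZNF148 replicate 3, when IRF7 alone was also past 1.5-fold. The calls over all tested rows moved too, from 216 higher and 431 lower to 3 and 26 without shCtr replicate 1, 76 and 175 without shCtr replicate 2, 7 and 40 without shCtr replicate 3, and 79 and 232 without shZNF148 replicate 1. With an unadjusted p under 0.05 there were 4 of 9, IFNAR1, IRF1, IRF7 and IRF9, all higher in shZNF148, beside 16.0% of all rows, and 0 were lower, beside 17.8%. The groups did not overlap, with shZNF148 higher, in 3 of 9, beside 20.0% of all rows. A share of 1 in 9 stands near the background and is no result about the genes as a set.

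Set side by side, the 5 constitutive genes had log2 fold changes from -0.08 to 0.52 with a median of 0.04, and 1 of them passed. The 4 induced genes had log2 fold changes from 0.16 to 0.96 with a median of 0.49, and 0 of them passed, although IRF1, IRF7 and IRF9 had an unadjusted p under 0.05 from limma. The median over all tested rows was 0.01. The mean log2(FPKM + 1) level of the induced genes was 3.53, 3.60 and 3.38 in the controls (replicates 1, 2 and 3) and 3.95, 4.40 and 3.73 after knockdown, so each shZNF148 sample stood above each control. That of the constitutive genes was 4.73, 4.69 and 4.66 in shCtr and 4.71, 4.92 and 4.78 in shZNF148, with overlap. The induced level lay below the constitutive level by 1.19 ± 0.0997 in shCtr and 0.778 ± 0.268 in shZNF148 on the log2 scale (SD, n = 3 each). These are descriptions of 9 genes picked with earlier results known and carry no test. The only gene that passed, IFNAR1, belongs to the constitutive group. With 1 gene passing, whether passing goes with the grouping cannot be read.

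**Figure D3:**
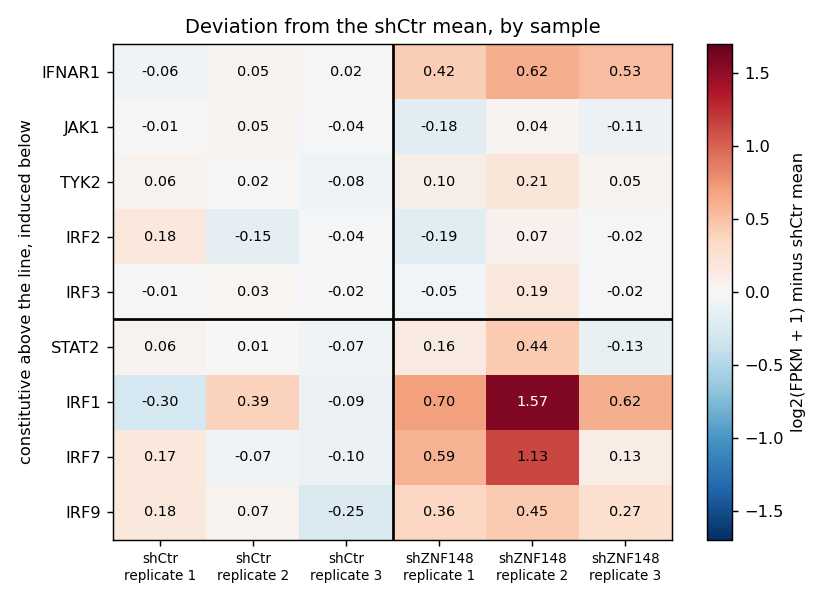
Deviation of log2(FPKM + 1) from the shCtr mean for the 9 genes (rows, constitutive above the line and induced below) in the 6 samples (columns), red for higher and blue for lower. IFNAR1 is raised evenly (0.42 to 0.62) across the shZNF148 replicates, whereas IRF1 and IRF7 peak in replicate 2 at 1.57 and 1.13.

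The shZNF148 samples were not alike. Replicate 2 had the highest shZNF148 value for 9 of 9 genes, for which the share over all tested rows was not computed. It was the highest of all 6 samples for 7 of 9, beside 27.6% of all tested rows. The same replicate had the lowest ZNF148 level, 0.282 FPKM. IFNAR1 was 0.42, 0.62 and 0.53 above the shCtr mean in shZNF148 replicates 1, 2 and 3 on the log2 scale, and its log2 fold change was 0.48 without replicate 2. IRF1 was 0.70, 1.57 and 0.62 above it, and IRF7 0.59, 1.13 and 0.13. The coefficient of variation in shZNF148 was 41.1% for IRF1, 39.2% for IRF7 and 20.7% for STAT2, and between 5.86% and 9.59% for the 5 constitutive genes. IRF9 was the even one of the induced genes, at 6.63%. The part of ZNF148 level or any other property of replicate 2 in these values was not tested.

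Levels spanned about an order of magnitude. In shCtr the order by mean FPKM was IRF3 (53.0), JAK1 (37.5), TYK2 (28.1), STAT2 (18.1), IRF2 (16.4), IRF9 (13.1), IFNAR1 (10.1), IRF1 (10.0) and IRF7 (4.76). The replicate ranges of neighbors in this order overlapped between STAT2 and IRF2, between IRF2 and IRF9, and between IFNAR1 and IRF1, and were apart for the other pairs. Taken over all 6 samples, IRF3 stood above 85.6% of tested rows and IRF7 above 31.5%. In shZNF148, IRF3 (54.6), JAK1 (35.5) and TYK2 (30.7) kept the top places. IRF1 (21.0) came next, with replicate values that overlapped those of both TYK2 and STAT2, and IRF7 (8.17) remained lowest with no overlap with its neighbor IFNAR1.

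Ratios within a sample compare pairs of genes with related roles, since FPKM is per length. The ratio of IRF1 to IRF2, activator over repressor, was 0.415, 0.900 and 0.573 in shCtr and 1.16, 1.81 and 0.969 in shZNF148, with no overlap. IRF1 was thus below IRF2 in all 3 controls and above it in 2 of 3 shZNF148 samples. The ratio of IRF7 to IRF3, the inducible over the constitutive inducer of interferon genes, was 0.104, 0.0825 and 0.0831 in shCtr and 0.149, 0.191 and 0.101 in shZNF148, with overlap. IRF7 therefore stayed far below IRF3 in every sample. The ratio of TYK2 to JAK1 was 0.788, 0.734 and 0.728 in shCtr and 0.918, 0.846 and 0.840 in shZNF148. That of IRF9 to STAT2 was 0.786, 0.751 and 0.624 in shCtr and 0.832, 0.724 and 0.962 in shZNF148. The kinase ratio did not overlap between groups, although JAK1 and TYK2 taken singly did, and the ratio of IRF9 to STAT2 overlapped. None of the ratios was tested, and the share of other gene pairs without overlap was not computed. Of single tested rows, 20.0% had no overlap with shZNF148 higher and 21.0% with shZNF148 lower.

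The regions before the start sites were read for the core letters through which interferon signals reach DNA. These were the interferon-stimulated response element core (GAAA, any 2 bases, GAAA), bound by the STAT2 and IRF9 complex and by IRF proteins, and the gamma-activated site core, TTCNNNGAA, bound by STAT dimers. Both strands were searched, and the second motif reads the same on either strand. RefSeq promoters (GRCh38.p14, 250 bases before to 50 after each start) had entries for IFNAR1, JAK1, TYK2, STAT2, IRF1 and IRF9, and none for IRF2, IRF3 and IRF7. The first motif was in 3.57% of all 35116 promoters and in none of these. The second was in 7.66% of all promoters, and had 1 match in IRF1 and 1 in IRF9. Both of these genes are in the induced group and had groups that did not overlap, as did 20.0% of all tested rows with shZNF148 higher. STAT2, also in the induced group, had no match. IFNAR1, whose groups also did not overlap, had none either. The shares are per promoter entry, and IFNAR1 and JAK1 had more than 1 entry. The matched bases are in capitals in the following stretches, which show the motif in its surroundings for IRF1 (chr5:132490853-132490932, minus strand) and IRF9 (chr14:24161167-24161246, plus strand). The third stretch is shown for contrast and is the sequence before the first listed start of IFNAR1, the gene that passed (chr21:33324315-33324394, plus strand), with no match.
IRF1: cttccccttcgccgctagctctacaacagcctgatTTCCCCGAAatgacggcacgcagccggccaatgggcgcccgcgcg
IRF9: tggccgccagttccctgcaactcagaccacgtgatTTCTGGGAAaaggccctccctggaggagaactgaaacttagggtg
IFNAR1: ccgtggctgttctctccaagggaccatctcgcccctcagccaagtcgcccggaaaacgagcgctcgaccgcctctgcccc

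The first base of the match lay 124 bases before the start of IRF1 and 63 bases before that of IRF9. A match of these letters is a description of the reference sequence and was not measured as binding. No match in the other promoters says only that the letters are not in those 300 bases.

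The profile of IFNAR1 over the 6 samples was compared with 11297 tested rows that hold 1 symbol. After centering each log2(FPKM + 1) profile on its mean, the closest by root mean square difference were NAA40 (0.0339), PFKFB3 (0.0350), SAR1A (0.0379), ORC5 (0.0423) and LOC401052 (0.0444). Their log2 fold changes were 0.52, 0.52, 0.56, 0.50 and 0.55. The choice by profile over the same samples keeps these values close to that of IFNAR1, so they are no separate result. None of these is a gene of the lists described here.

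Further genes of the pathway were read from fixed lists. Of 17 other receptor, JAK, STAT and IRF genes, 10 were tested and 0 passed in either direction with limma, with a median log2 fold change of 0.06 and an unadjusted p under 0.05 for 1 higher and 1 lower gene. Of 14 negative regulators, among them the SOCS proteins that block the kinases, 12 were tested and 0 passed with limma, with a median of 0.04 and an unadjusted p under 0.05 for 2 genes, both higher. Without shZNF148 replicate 3, 3 of them passed as higher. Over all tested rows, 5.46% passed as higher and 8.13% as lower in the main fit. An unadjusted p under 0.05 from limma was found in 16.0% higher and 17.8% lower. The counts of these 2 short lists in the main fit stand near those shares. The log2 fold changes of the 12 tested negative regulators ran from -0.28 to 0.65, with 7 of them above 0. SOCS1 was named from this list after its values were seen. Its level was 3.66, 2.54 and 3.05 FPKM in shCtr and 5.30, 7.43 and 3.85 FPKM in shZNF148. The groups of SOCS1 did not overlap, as in 20.0% of all tested rows with shZNF148 higher, and its adjusted p of 0.0879 from limma did not pass. Of 22 interferon ligand symbols, with IFNL1 and its older name IL29 both listed, 21 had rows. Of these rows, 20 were listed at 0 in all 6 samples, and the highest single value was 0.462 FPKM. The ligands are thus at or near 0 throughout, in both groups.

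The sensors, adaptors and kinases that act upstream of IRF3 and IRF7 included genes that rose. Of 13 tested, 5 passed as higher and 0 as lower, beside 5.46% and 8.13% of all tested rows, with a median log2 fold change of 0.18. TLR3, a receptor for double-stranded RNA, rose from a mean of 1.12 ± 0.228 to 3.43 ± 0.470 FPKM (SD over 3 replicates each), and its log2 fold change was 1.06 (adjusted p = 0.0118 from limma). MYD88, an adaptor of Toll-like receptors, rose by 0.54 (adjusted p = 0.0384) and IKBKE, a kinase of IRF3 and IRF7, by 0.39 (adjusted p = 0.0217). The row that joins DDX58, the RNA sensor RIG-I, with TOPORS rose by 0.43 (adjusted p = 0.0378), and its value cannot be assigned to 1 of the 2 genes. MAVS, the adaptor of RIG-I, also passed, with a log2 fold change of 0.31 (adjusted p = 0.0309). With a sample left out in turn the number that passed as higher was between 0 and 6, and it was 0 without shCtr replicate 1 or 3 and 1 without shCtr replicate 2 or shZNF148 replicate 1, and 3 without shZNF148 replicate 3.

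Downstream, 35 of 38 interferon-stimulated target genes were tested. Of these, 14 passed as higher, 1 passed as lower and 20 did not pass, beside 5.46% higher and 8.13% lower of all tested rows. The median log2 fold change was 0.55. IFIT2, IFIT1 and IFIT3, of a family that acts on foreign RNA, rose by 1.66, 1.59 and 1.58 on the log2 scale, and IFI44 by 1.36 (adjusted p = 0.0309, 0.0280, 0.0346 and 0.0463 from limma). In these 4 genes shZNF148 replicate 2 stood far above the other two, as in IFIT1 with 31.4, 74.4 and 31.8 FPKM and IFI44 with 18.4, 51.9 and 25.1 FPKM in the shZNF148 replicates. The gene that fell was IFITM2, which restricts virus entry (log2 fold change -0.75, adjusted p = 0.0120). The number that passed as higher was 0 with any shCtr replicate left out, 5 without shZNF148 replicate 1 and 16 without shZNF148 replicate 2. IFNAR1 at 0.52 and the induced members at 0.16 to 0.96 lay below IFIT2, IFIT1, IFIT3 and IFI44. Those 4 were named for the largest changes among the targets that passed. Against the median of 0.55 of all tested targets, IRF1 (0.96) and IRF7 (0.62) stood above, and IFNAR1, IRF9 and STAT2 below. Since bulk RNA was measured, a change in all cells and a change in the share of responding cells cannot be told apart.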

How the data were processed

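The deposited values are FPKM, in 1 column per sample of a single table made by the authors, with 0 sample columns unused. The submitters' processing notes name bcl2fastq 2.17.1.14, TopHat2 2.0.14, Cufflinks 2.2.1 and Cuffnorm 2.2.1 with hg18 and hg19. The paper's methods instead name Salmon, GRCh38 and DESeq2, which cannot be repeated on FPKM. Read depth is unknown, which limits the precision of low values.

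Rows averaging 1 FPKM or more were fitted as log2(FPKM + 1) by limma 3.58.1 in R 4.3.3. The model had condition alone, eBayes followed the mean-variance trend, and Benjamini-Hochberg adjustment covered all tested rows. In 11777 simulated rows, 98.0% of 200 rows changed by 2 on the log2 scale were recovered with 5 false calls. The 200 rows were drawn from rows of higher level only. Changes as small as those of the 9 members were not simulated, so the share recovered does not apply to them. Single genes were compared by exact permutation (scipy 1.17.1). The members, gene lists and tests were chosen with earlier results of these data known. Named genes were the 9 members, ZNF148, up to 4 passing genes with the largest change per list, and the 5 profiles nearest to the member with the lowest p. SOCS1, MAVS, IFITM2 and the values of single markers were added after they were seen. Of several rows for 1 symbol, the most abundant was taken. Coordinates are from GENCODE release 44 (GRCh38), not the deposited table. Protein sequences were not used here.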

Additional observations from a re-analysis of the deposited data

How the results depend on the processing

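Across 16 other settings (filters, pseudocounts, scalings, variance models, summed rows, the replicate number as a block and each sample left out), the log2 fold changes of IFNAR1, IRF1, IRF7, IRF9, STAT2 and TYK2 stayed above 0 and that of JAK1 below 0. IFNAR1 passed in 13 of the 16, IRF1 and IRF7 in 1 each and IRF9 in 0. With each sample left out, IRF2 ran from -0.119 to 0.0472 and IRF3 from -0.0378 to 0.0839, both changing sign. In these same fits with a sample left out, the number of the 9 genes that passed as higher ran from 0 to 2 and the number called from 0 to 1. All tested rows called higher ran from 3 to 222 in them and lower from 26 to 397, against 216 and 431 in the main fit. Other settings moved these counts down or up. A pseudocount of 5 FPKM gave 76 and 204, one of 0.1 FPKM gave 281 and 481, and robust eBayes gave 235 and 450. Without a filter on low values 9 targets and 3 upstream genes passed as higher, against 14 and 5.

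With the replicate block, 2 of the 9 genes passed as higher, IFNAR1 (adjusted p = 0.0481 from limma) and IRF1 (0.0415), and 1 was called. All rows gave 99 and 216 calls, and 5 targets and 1 upstream gene passed as higher. Deviations of same-numbered samples correlated at 0.00104, -0.0881 and 0.0304 across rows. Only shZNF148 replicate 3 correlated best with the sample of its own number in the other group. These deviations were taken from the group means, so the correlations cannot settle whether same-numbered samples shared a culture or batch. The labels name no shared batch. Unknown read depth limits low values such as those of the ligands. Why these counts moved was not tested.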
